A study of Oncorhynchus kisutch with 206 samples.

Results

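Males were compared with females among coho salmon (Oncorhynchus kisutch) caught in the Strait of Georgia, the inland sea east of Vancouver Island, in the fall of 2009. Fish were taken by their labels alone: ocean fall, year 2009, place NM_SoG (northern and mid Strait) or south_SoG (south Strait), and sex M or F. The rule found 43 of the 206 fish of the series, 22 females and 21 males, and no fish of unknown sex had these labels. Of the females, 11 came from NM_SoG and 11 from south_SoG. Of the males, 10 came from NM_SoG and 11 from south_SoG. All were caught at sea, were of hatchery or wild origin and had titles that read coho smolt. Beyond that the labels name no treatment, age or maturity. By stock region, 8 females and 9 males were labelled ECVI, 6 and 7 Fraser, 8 and 4 S_Main, and 1 male Chilliwack_R. Each array held the brain RNA of 1 fish in one dye and a pool of all brain samples in the other dye, so each value is the likely log2 ratio of the fish over the pool. That direction was read from the values, and every sign below would turn if the ratio were pool over fish.

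Sex in salmonids is set genetically, by a male-determining gene that acts in the developing gonad. The brain is tied to the gonad through gonadotropin-releasing neurons and the pituitary, and fish brain makes estrogen locally through aromatase in radial glia. Sex differences in teleost brains are best known from maturing adults, in which gonadal steroids are high. A probe is known here only by its place on the array, as column and row, and the files do not pair probes with genes. Genes of sex determination, the steroid and gonadotropic axis and the brain's cell types could therefore not be looked up, nor could the brain label be checked against markers. In whole brain tissue, fewer cells of a type and less RNA per cell cannot be told apart.

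Size and origin did not differ detectably between the sexes. Fork length was 24.5 ± 2.70 cm (SD, n = 21) in males and 24.1 ± 2.03 cm (n = 22) in females, with a two-sided permutation p of 0.580 when sex was shuffled within places. Total mass, known for 18 males and 20 females, was 181 ± 56.4 g and 172 ± 39.1 g (permutation p = 0.548). The condition factor, a ratio of mass to the cube of length, was 1.23 in each sex, with SDs of 0.0622 in males and 0.0543 in females (permutation p = 0.883). Hatchery fish made up 52.4% of the males and 45.5% of the females (Fisher's exact p = 0.763). After adjustment over these 4 measures every p was 0.883. The balance was not the same in both places. In NM_SoG, males measured 25.6 ± 1.84 cm and females 23.9 ± 2.16 cm, and 7 of 10 males but 4 of 11 females were hatchery fish. In south_SoG, males measured 23.6 ± 3.06 cm and females 24.4 ± 1.97 cm, and 4 of 11 males and 6 of 11 females were hatchery fish.

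The arrays of the 2 sexes did not differ detectably as wholes. A share of 38.6% ± 7.07 of the 43630 probes was empty in males and 39.6% ± 7.94 in females, and the SD of an array's log2 ratios averaged 0.846 in each sex. None of 4 whole-array measures (median, SD, share of empty values, residual spread) differed in a permutation test within places, with unadjusted p from 0.316 to 0.997 and adjusted p of 0.997. Among probes with a value on all 43 arrays, 14681 in number, the first principal component took up 32.4% of the variance, with a male minus female difference of -3.68 against SDs of 44.1 in males and 49.7 in females. None of the first 5 components separated the sexes over both places together (permutation p from 0.308 to 0.802, adjusted p = 0.802). The order of the sex means was opposite in the 2 places on components 1 and 2, and the same on components 3, 4 and 5. On component 2, males averaged -9.25 ± 25.57 and females 7.75 ± 18.18 in NM_SoG (SD). In south_SoG, males averaged 10.41 ± 25.05 and females -9.76 ± 27.76. Whether the sex difference in these scores changed with place was not tested. Over the same probes, pairs of fish of the same sex and place on different slides correlated at a mean r of 0.423 (203 pairs), and pairs of opposite sex at 0.427 (224 pairs); the permutation p of that difference was 0.782. Arrays of female 2621 in NM_SoG and male 3020 in south_SoG stood apart from the rest, with scores on the first component of 143 and 141 and array SDs of 1.51 and 1.61. The fall fits below were repeated without 1 fish at a time, and not without female 2621 and male 3020 together. Results without male 3020 are given where they moved.

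**Figure D1:**
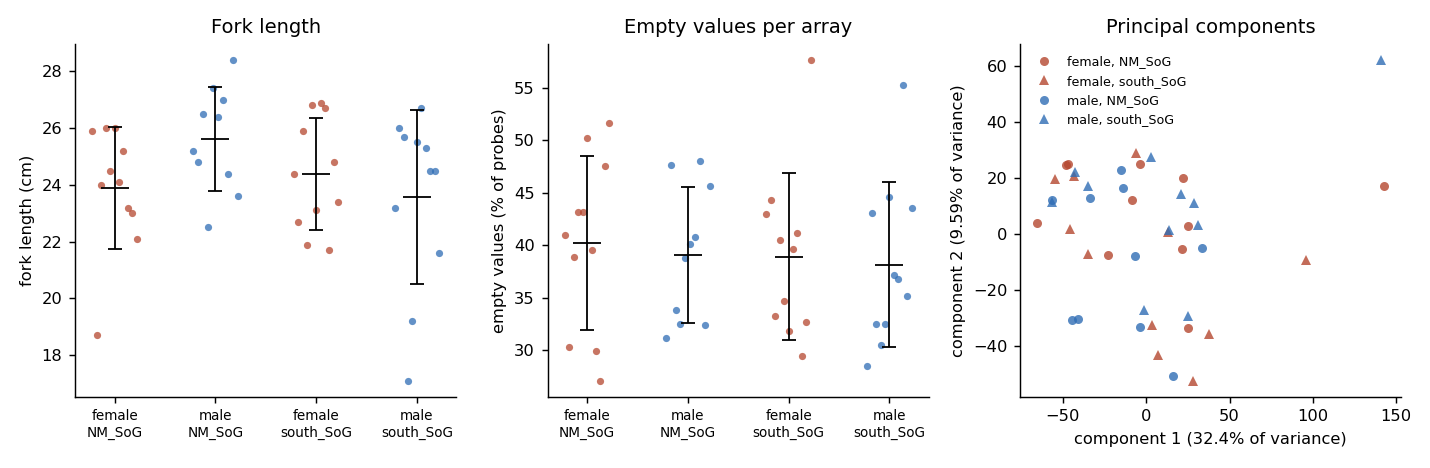
Fork length in cm, the percentage of empty values per array, and the scores of the 43 arrays on the first 2 principal components, with males in blue and females in red. Bars mark the mean and SD of each sex and place; the sexes overlap in every panel, NM_SoG males average 25.6 cm against 23.9 cm in NM_SoG females, and 2 arrays lie beyond 140 on component 1.

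No probe passed the test of males against females. With limma, place as a term and slide as a random block, 0 of 31943 probes with at least 3 values in each sex passed an adjusted p of 0.05 (0%), and the smallest adjusted p was 1.00. At an unadjusted p under 0.05 there were 584 probes (1.83%), of which 225 were higher and 359 lower in males. The p-values leaned towards 1: 1.83% of the probes fell in the lowest of 20 equal classes of p and 5.99% in the highest. The count at unadjusted p was 948 without male 3020, and limma called no probe when each of the 43 fish was left out in turn. Of the 24 slides, 8 held both sexes. A fit with slide as a fixed term and no place term compared fish within slides. It called 0 of 30898 probes, and 1200 had an unadjusted limma p under 0.05. Some slides held fish of both places, so the sex differences within slides are not adjusted for place. Of 12 control spots that could be tested, 0 were higher in males, with a median difference of -0.135 and a smallest unadjusted limma p of 0.107. Among the 25728 probes read in at least 50% of each sex, 50.5% were higher in males. Control spots of an array are not independent, and their shared direction was not tested.

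**Figure D2:**
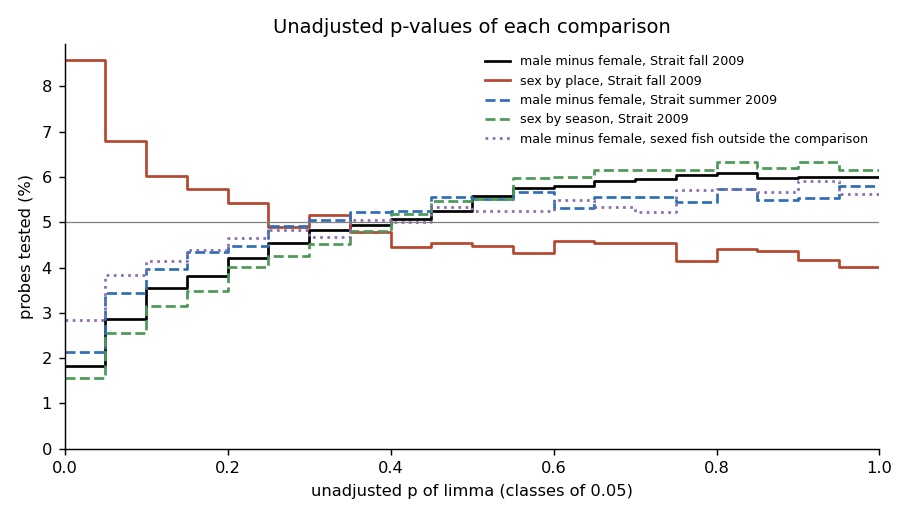
Percentage of probes tested in each class of unadjusted limma p (width 0.05) for the 5 comparisons; the grey line marks equal classes. The fall sex comparison holds 1.83% of its probes in the lowest class, and the sex-by-place comparison holds 8.59%.

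Few fitted sex differences reached 2-fold. For the 25728 probes read in at least 50% of males and of females, the male minus female difference had a median of 0.00, and 95% of the probes lay between -0.30 and 0.32 on the log2 scale. The median standard error was 0.17, which gave a median 95% half-width of 0.35. The 95% interval lay within 2-fold in either direction for 97.2% of these probes and within 1.5-fold for 74.6%. The intervals are for each probe on its own and are not adjusted for the number of probes. They come from a fit with 1 sex difference for both places, so they do not bound the difference within either place. Males were higher at 13004 of the probes (50.5%). In no probe with values on at least 50% of each sex did the values of the sexes lie apart. The ranges lay apart in 95 of all 31943 probes tested, where 0% were called; none of these had more than 13 values in all. Among the 25728, the probe that ordered the sexes most clearly had the male as the higher one in 15.9% of 132 pairs.

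For scale, 3 other labels were tested in the same fish, a step chosen after seeing the data. South against NM_SoG gave 0 called probes (0%) and 1119 at unadjusted p under 0.05 (3.5%). Fork length gave 0 called (0%) and 2804 at unadjusted p under 0.05 (8.78%), and wild against hatchery gave 0 called (0%) and 2904 (9.1%). The unadjusted share for sex, 1.83%, was the lowest of the 4; the differences between these shares were not tested.

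Because no probe passed, the probes with the smallest p in each direction and values on at least 50% of each sex are given as the nearest to a sex difference. C136R026 had values in 13 males, from -0.12 through a median of 0.35 to 1.07, and in 15 females, from -0.99 through -0.03 to 0.45. The upper part of the male range lay above all females, and the rest of the range was shared. The fitted difference was 0.51 ± 0.16 (SE; unadjusted limma p = 0.00342, adjusted p = 1.00). C227R162 had values in all fish, from -0.43 through 0.23 to 1.17 in males and from -0.01 through 0.82 to 1.83 in females. Females were on average higher in both places, at 0.77 ± 0.59 against 0.34 ± 0.49 in NM_SoG and 0.88 ± 0.43 against 0.26 ± 0.30 in south_SoG (SD). The fitted difference was -0.52 ± 0.14 (SE; unadjusted limma p = 0.000781, adjusted p = 1.00). Within slides, without a place term, the 2 probes differed by 0.51 ± 0.23 and -0.50 ± 0.22 (SE). Both fitted differences were smaller in size in other fish, though the probes were picked for their p in fall. In the summer fish of the same year and Strait C136R026 differed by 0.17 ± 0.17 and C227R162 by -0.06 ± 0.21 (SE). For C136R026 the summer 95% interval, -0.17 to 0.52, holds the fall difference. The change between the seasons had an unadjusted limma p of 0.167 for C136R026 and 0.0899 for C227R162. Over 97 sexed fish outside the comparison they differed by 0.00 ± 0.11 and -0.09 ± 0.12 (SE). The 35 summer fish are among those 97, so these are not 2 separate sets of fish.

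The widest fitted differences, chosen after seeing the values, belonged to probes that vary widely among fish of each sex. C038R008 spanned -5.65 to 1.88 in males, with a median of 0.65, and -6.17 to 1.39 in females, with a median of -3.55. Both sexes had fish on each side of -2, a level set after seeing the values: 5 of 21 males and 13 of 22 females were below it. The fitted difference was 2.13 ± 0.74 (SE; unadjusted limma p = 0.00643, adjusted p = 1.00), and within slides it was 1.07 ± 0.99. Among fish outside the comparison, 26 of 50 males and 18 of 47 females were below that level. C127R070, the widest in the other direction, spanned -3.86 to 1.05 in males (20 values, median 0.08) and -3.31 to 1.73 in females (20 values, median 0.73), with a fitted difference of -1.03 ± 0.50 (SE; unadjusted limma p = 0.0452, adjusted p = 1.00). It was -0.30 ± 0.62 in NM_SoG fish alone, -1.70 ± 0.71 in south_SoG fish alone and -1.37 ± 0.69 within slides. In the summer fish C127R070 differed by -0.08 ± 0.59, and in all fish outside the comparison, summer fish included, by -0.25 ± 0.37 (SE).

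**Figure D3:**
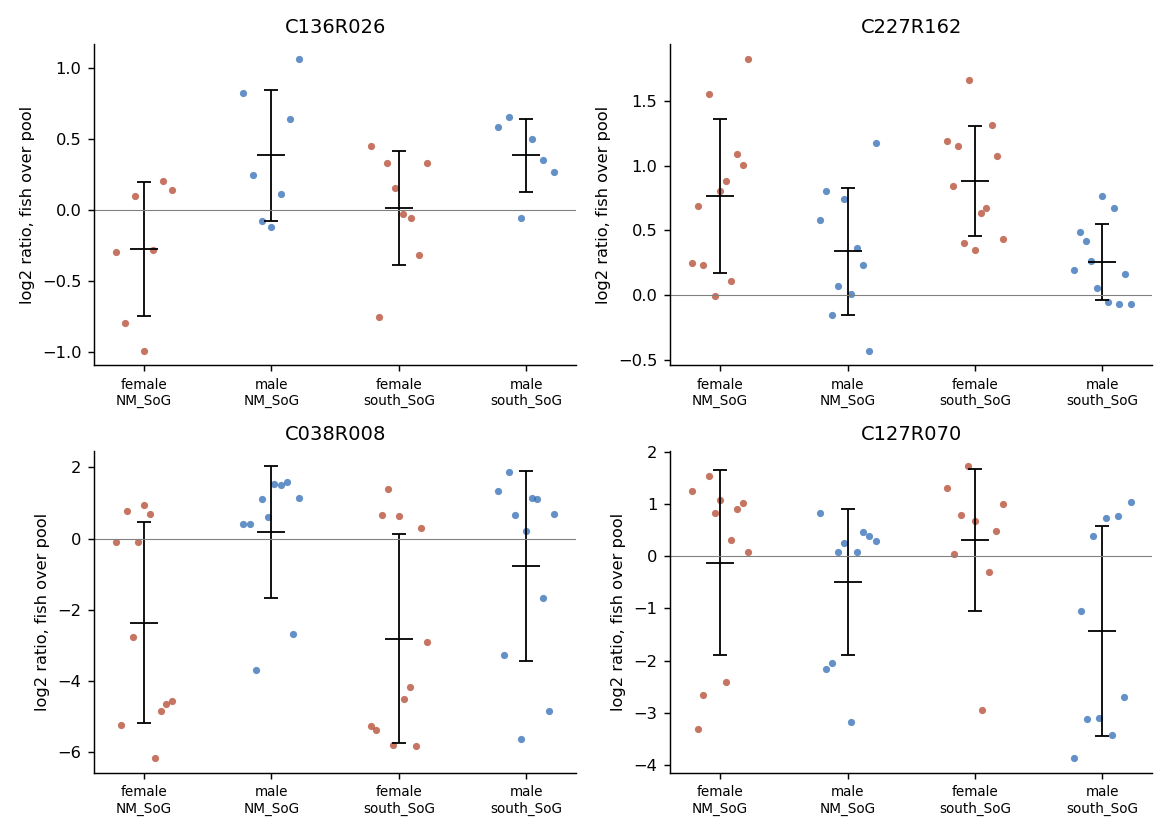
Log2 ratio of each fish over the pool for the 2 probes with the smallest p in each direction (top) and the 2 with the widest fitted differences (bottom), by sex and place; bars mark the mean and SD. The probes were picked among those with values on at least 50% of each sex. The sexes overlap in all panels, and for C038R008 males and females lie both above and below -2.

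Altogether 19 of the 25728 probes had a fitted sex difference of at least 2-fold, 16 higher and 3 lower in males. Their standard errors ran from 0.352 to 0.744, and the smallest unadjusted p was 0.00612. In the summer fish 6 of the 19 kept their sign, and the differences of all 19 ran from -0.90 to 0.28. In the sexed fish outside the comparison, which include the summer fish, all 19 were lower in males, from -1.07 to -0.06. Thus 3 of 19 kept their sign. Over all probes that the comparisons shared, the sign was the same for 55.2% in summer and 52.4% in the fish outside. The 19 probes were picked for their size in fall and were read on the same arrays, so they are not independent. These counts are given as a description.

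**Figure D4:**
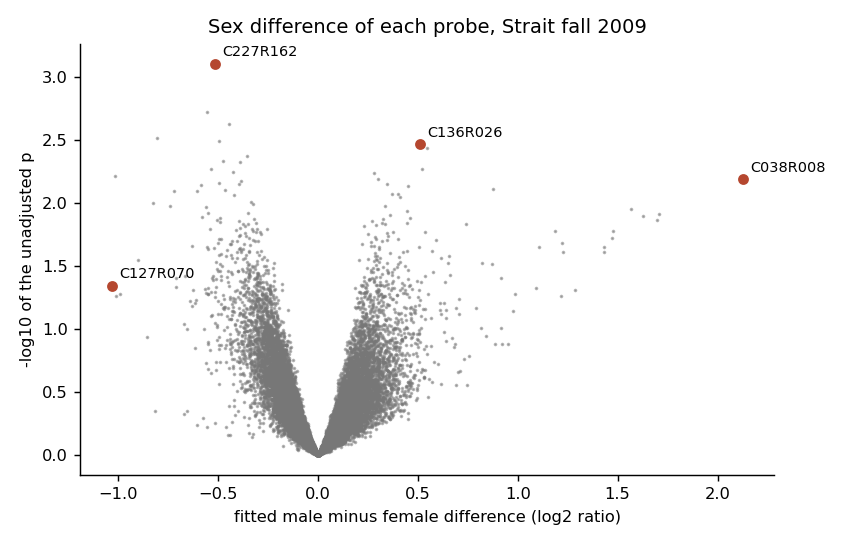
Fitted male minus female difference (log2 ratio) against -log10 of the unadjusted limma p for 25728 probes with values on at least 50% of each sex; red points are the named probes. C038R008 is farthest to the right at 2.13, and no point passes the adjusted threshold.

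Whether a probe had any value was tested apart from its level, since a probe read in 1 sex alone has no difference to fit. By Fisher's exact test on 18759 probes with at least 3 present and 3 empty values, 0 were called (0%), and 303 had an unadjusted p under 0.05 (1.62%); the smallest adjusted p was 0.901. Of the 18759 probes, 234 had values in at least 3 males and no female, and 238 in at least 3 females and no male. None of the 234 was read in more than 7 males, and none of the 238 in more than 11 females. C071R164 had a value in 18 of 21 males and 5 of 22 females (Fisher's exact p = 4.8e-05, adjusted p = 0.901), and C083R169 in 12 of 21 males and 1 of 22 females (Fisher's exact p = 0.000196, adjusted p = 1). C248R108 had a value in 11 of 22 females and 0 of 21 males, which allows a share of up to 14.3% (Fisher's exact p = 0.000184, adjusted p = 1), and C001R058 in 10 of 22 females and 1 of 21 males (Fisher's exact p = 0.00389, adjusted p = 1). In the 97 fish outside the comparison, C071R164 was read in 34 of 50 males and 26 of 47 females, C083R169 in 17 of 50 males and 11 of 47 females, C248R108 in 18 of 50 males and 13 of 47 females, and C001R058 in 33 of 50 males and 30 of 47 females. The limit covers counting error only. C248R108, read in no male of the comparison, was thus read in males outside it.

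The question of whether the sex difference was the same in both places gave a different picture of the p-values, though again no called probe. In a fit with sex, place and their interaction, 0 of 28103 probes passed an adjusted p of 0.05 (0%), the smallest adjusted p was 0.323, and 2413 probes (8.59%) had an unadjusted p under 0.05. Of these, 1236 had a higher male minus female difference in south_SoG and 1177 a lower one. The fitted interaction lay between -0.94 and 0.89 for 95% of the probes, with a median standard error of 0.35.

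C026R108 had the smallest p among the probes whose sex difference was higher in the south. In NM_SoG its values ran from -2.94 through a median of -1.04 to -0.06 in 10 males and from -1.49 through -0.34 to 0.42 in 11 females. In south_SoG they ran from -1.46 through -0.57 to 0.16 in 11 males and from -2.46 through -1.49 to -0.77 in 11 females. Males were thus lower than females on average in NM_SoG and higher in south_SoG, with ranges that overlap in each place. The interaction was 1.78 ± 0.36 (SE; unadjusted limma p = 1.23e-05, adjusted p = 0.323), and pooled over places the sex difference was 0.08 ± 0.23. C234R155 ran the other way. Its means were 0.77 ± 0.40 in males and 0.32 ± 0.31 in females of NM_SoG, and -0.40 ± 1.03 in males and 0.73 ± 0.20 in females of south_SoG (SD). The interaction was -1.61 ± 0.35 (SE; unadjusted limma p = 3.26e-05, adjusted p = 0.323). Its lowest value, -3.14, belonged to male 3020; without that fish the interaction was -1.35 ± 0.24 and C234R155 was the 1 probe called (limma adjusted p = 0.0276).

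Across 24471 probes read in at least 50% of the fish of each sex and place, the plain male minus female difference in NM_SoG and that in south_SoG correlated at a Pearson r of -0.40 (Spearman -0.42) and had the same sign for 35.1% of the probes. The 2 differences come from separate fish, but probes of an array share its RNA and labelling, so this is a description without a test, chosen after seeing the data. The median absolute difference was 0.19 in NM_SoG and 0.17 in south_SoG. For the fit over both places it was 0.10, over 25728 probes. Each place holds fewer fish, so these sizes are not directly comparable. Without male 3020 the r was -0.24. Female 2621 of NM_SoG and male 3020 of south_SoG stood apart in the same direction on the first component, at 143 and 141. No r is given here without both fish, and their part in the r was not tested. Males were on average the longer sex and more often hatchery fish in NM_SoG and neither in south_SoG. Fork length and origin are thus mixed with sex by place. On residuals from fork length and origin the r was -0.37. With both added to the interaction fit, 0 probes were called and 2909 had an unadjusted limma p under 0.05. Stock region was not added to that fit, and the cause of the pattern was not tested. The interaction fit above tested 28103 probes and called 0. Array weights estimated by limma, added to it after seeing the data, gave 40 called probes, 20 in each direction, with a smallest adjusted p of 0.0370. Slide as a fixed term, added likewise, gave 1. Within slides the interaction was 1.56 ± 0.37 for C026R108 and -1.53 ± 0.39 for C234R155 (SE). The fits in which probes were called are exceptions among those run: the fit above called none, and neither did it without the slide term, with quantile normalization or with values on at least 50% of each sex and place.

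**Figure D5:**
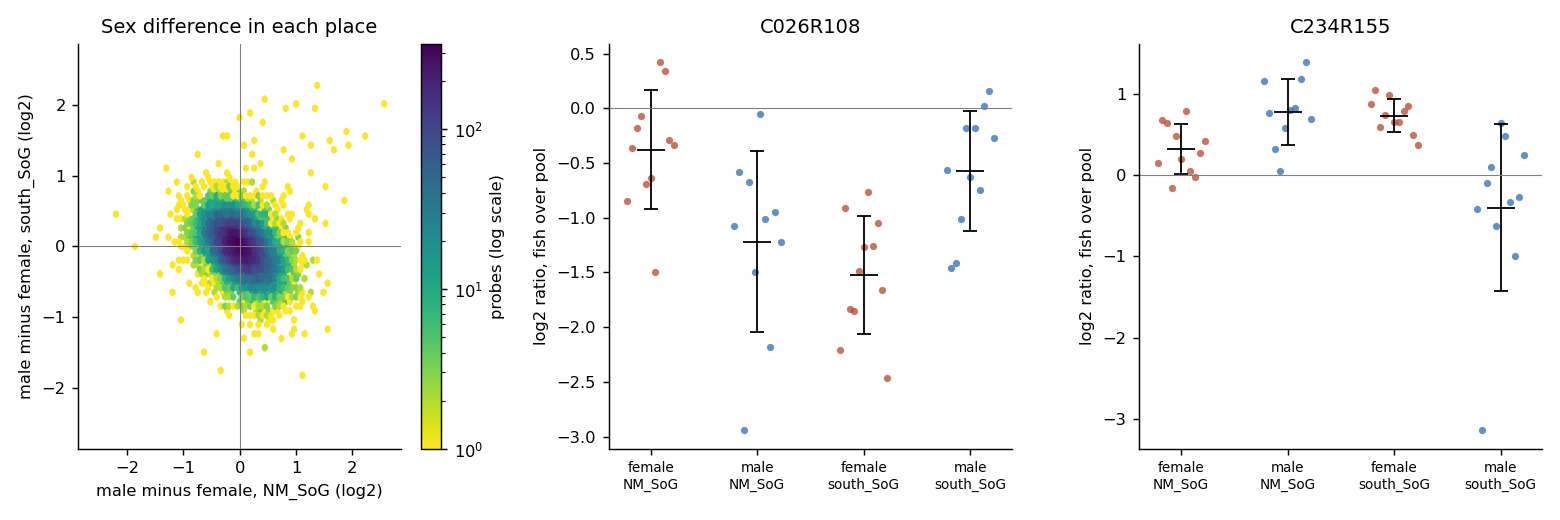
Left, male minus female difference of group means (log2) in NM_SoG against south_SoG for 24471 probes, coloured by the number of probes in each cell on a log scale (r = -0.40). Middle and right, log2 ratios of each fish for C026R108 and C234R155 by sex and place with mean and SD; the order of the sexes is opposite in the 2 places.

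The same contrast in fish that share no array with the comparison also called no probe. Some of these fish shared a slide with fish of the comparison, and all arrays were read against the pool, so the hybridizations are not wholly separate. In 16 females and 19 males of the Strait in summer 2009, limma called 0 of 32742 probes (0%), and 702 had an unadjusted p under 0.05 (2.14%). The probes named here had the smallest p in each direction among probes with values on at least 50% of each sex. They were C192R071, at 0.80 ± 0.23 (SE, unadjusted limma p = 0.00112), and C204R049, at -0.62 ± 0.17 (unadjusted limma p = 0.000997). Each had an adjusted p of 1.00. In the fall fish their differences were -0.17 ± 0.19 and -0.05 ± 0.21. The test of the change in the sex difference between the seasons called 0 of 30991 probes (0%), with 487 at an unadjusted p under 0.05 (1.57%). Among probes read that widely, C192R071 had the smallest p of those with a higher difference in summer (0.99 ± 0.30, SE). C104R068 had the smallest p of those with a lower one (-0.56 ± 0.18). Both had an adjusted p of 1.00.

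All sexed fish outside the comparison, 47 females and 50 males, came from river smolts to ocean winter. They include the summer fish above, so results in the summer fish and in the fish outside are not independent. They were tested with a term for each season, year and place. Limma called 0 of 36765 probes (0%), and 1046 had an unadjusted p under 0.05 (2.85%). C028R125 had a difference of 0.39 ± 0.11 and C139R141 of -1.14 ± 0.28 (SE), with adjusted p of 1.00; in the fall Strait fish they were at -0.05 ± 0.13 and -0.26 ± 0.34. Over the 25726 probes that both comparisons measured, the fall and summer sex differences correlated at r = 0.164 and had the same sign for 55.2%. Against the fish outside the comparison the r was 0.0721 over 25728 probes, with the same sign for 52.4%. These are descriptions across probes, which are not independent. Of the 374 probes at unadjusted p under 0.05 in fall with values on at least 50% of each sex, 228 had the same sign in summer and 209 in the fish outside the comparison. In summer 7 of the 374 also had an unadjusted p under 0.05, 5 with the same sign, beside 561 of all 25726 probes. In the fish outside 14 of the 374 did, 8 with the same sign, beside 708 of all 25728.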

How the data were processed

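The deposited series table holds 1 value per probe and array, made by the authors and read here as log2 ratios of fish (Alexa 555) over a pool of all brain samples (Alexa 647, per the labels' protocols). Neither base nor direction is named in the labels. Over 17531 probes with values on at least 200 arrays, log2 of the mean back-transformed value in 10 classes of variance stayed between 0.06 and 0.21 read as fish over pool and ran from -0.07 to 1.16 read as pool over fish, so the direction is likely; a natural log is possible (0.20 to 0.38), and would make folds larger. All 206 arrays have the same dye orientation. Among the 903 pairs of the 43 arrays over 14681 probes no correlation lay below -0.3 (lowest -0.157). A second deposited table, of values in a unit its columns do not name ("other"), was identical over the 43630 probes and adds 18 control rows. How spots were quantified, corrected for background and normalized, and why some values are empty, is not given in the sources used here.

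Each fish number was taken as 1 animal and 1 replicate; no 2 of the 43 fish shared all labels, and no 2 arrays held the same values. Numbers are not shared between sexes, so nothing pairs the fish. The labels do not say that extractions were independent, so p-values measure the spread between these arrays. The 43 arrays lie on 24 slides, 8 of which hold both sexes (20 fish). Tests used limma 3.58.1 in R 4.3.3, with lmFit, slide as a random block, and eBayes. Benjamini-Hochberg adjustment ran over probes with at least 3 values a side, at 0.05. The consensus correlation within slides came from 2000 probes with values on at least 50% of arrays. It was 0.161 in the fall sex fit, 0.13 in sex by place, 0.0491 in summer, 0.0957 in sex by season and 0.205 in the fish outside. A fish with an empty value was dropped from that probe alone. Permutation tests drew 100000 shufflings of sex within places. The total mass of fish labelled 0 was taken as missing. The scripts were tested on simulated data.

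Named probes are the 1 higher and 1 lower with the smallest p among probes with values on at least 50% of each sex, since none passed, and for empty values the 2 in each direction with the smallest p; C038R008 and C127R070 were added after their values were seen. The members and lists were chosen with earlier results of these data known. Lists of sex, steroid and brain marker genes could not be tested, as no table used here names the probes' genes. Depth does not apply to arrays; the number of arrays limits the precision. Alternatives for scaling, filters, slide, terms and subsets were tried, and those added after exploratory fits are named as such.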

Additional observations from a re-analysis of the deposited data

Results flagged for a closer look

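Of 27 groups of 4 to 10 fish examined, 2 held a value far from the others. Such a gap arises by chance in about 1 of 20 groups. Groups of 11 values were not examined, which left out most measures of females in both places and of south_SoG males. Female 2621 and male 3020 belong to those groups. Male 3155 of NM_SoG had a score of 73.4 on the fourth principal component, against a median of 0.454 in the 10 males of that place. Male 3308 of south_SoG, on the same slide, scored 76.9. Among the 9 females of south_SoG with a value for C127R070, the lowest was -2.95, against a median of 0.67.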

How the results depend on the processing

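The sex comparison in fall fish called 0 probes under each of 23 other settings, 2 of them added after seeing the data, with 151 to 1492 probes at unadjusted p under 0.05 and a smallest adjusted p of 0.340 (array weights) to 1.00. The highest unadjusted count came from NM_SoG fish only. Without each of the 43 fish in turn, 0 to 0 probes were called by limma, with 452 to 948 at unadjusted p under 0.05. Sex by place called 0 of 28103 probes in the main fit. It also called 0 without the slide term, with quantile normalization and with values on at least 50% of each sex and place. Of those added after seeing the data, array weights called 40, slide as a fixed term called 1, fork length with origin and the first component called none, and leaving out each fish called 0 to 1 (1 without male 3020); the cause was not tested. Summer fish, sex by season, the fish outside the comparison and empty values also gave 0 under each of their 3, 3, 5 and 2 alternatives, with unadjusted counts of 560 to 843, 337 to 618, 751 to 1150 and 243 to 253. Of 17 alternatives for array measures, components and fish measures 16 kept their direction, and every adjusted p stayed at or above 0.801. The exception was component 2, whose male minus female difference was 2.06 and with quantile normalization -1.56; the cause was not tested. No named probe changed sign, but differences of the fall probes moved by over 1.5 times in some settings: C136R026 from 0.51 to 0.33 with array weights, C227R162 from -0.52 to -0.27 in wild fish only and -0.33 with west coast fish added, C038R008 from 2.13 to 1.07 within slides, and C127R070 from -1.03 to -0.30 and -1.70 within each place. The correlation of the sex difference between places ran from -0.50 to -0.24 without each fish in turn and was -0.34 on residuals from the first component. No fish number is shared between the sexes, so fish were blocked by slide and not paired by number. The 95% half-widths are not detection limits, since calls were made at a p adjusted over all probes. Without gene names no known sex-linked transcript could serve as a check of the sex labels.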
